A study of Mus musculus with 4 samples.

Results

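The subcortical maternal complex is an assembly of proteins that the oocyte stores beneath its surface and hands on to the embryo. The 7 genes described here, Nlrp5, Ooep, Tle6, Khdc3, Padi6, Nlrp2 and Zbed3, encode its components and those of the cytoplasmic lattices, the fibrous structures in which the egg keeps maternal proteins. They were taken by gene symbol from the 24411 genes listed in each library, and all 7 were listed and passed the filter on low counts. Polyadenylated RNA was sequenced from embryos of ICR mice at the late two-cell stage, which were produced by in vitro fertilization, grown in KSOM medium and collected at 36 hpi (hours post-insemination). For 2 libraries the medium contained 10074-G5 at 6 µM, a small molecule that binds MYC and prevents its heterodimerization with MAX (inhibitor-treated embryos), and for the other 2 it contained DMSO, the vehicle (control embryos). Each library was a pool of 10 embryos, the treatment began at 3 hpi per the sample labels and at 6 hpi per the series design, and the duplicates were described as biological replicates.

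Transcripts of these genes are made in the growing oocyte. Like most maternal mRNAs, they are degraded while the embryonic genome is activated, in the mouse mainly at the late two-cell stage, and the proteins outlast them. Females without NLRP5, a leucine-rich repeat protein also called MATER, ovulate and produce fertilizable eggs, but their embryos stop at the two-cell stage. OOEP and KHDC3 (FILIA) carry domains related to the KH RNA-binding fold, TLE6 belongs to the Groucho family of corepressor-like proteins, PADI6 is a peptidylarginine deiminase family member that the lattices require, NLRP2 is a relative of NLRP5, and ZBED3 is a BED zinc finger protein. In bulk libraries of this kind, fewer embryos that contain a transcript and less of it per embryo cannot be told apart.

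The genes lie on 5 chromosomes of the mouse genome (GRCm38.p6, the build to which mm10 corresponds). Nlrp5 (chr7:23385889-23441923, plus strand) and Nlrp2 (chr7:5298547-5351035, minus strand) share chromosome 7 at a distance of 18.0 Mb. Ooep (chr9:78376903-78378588, minus strand) and Khdc3 (chr9:73101381-73106631, plus strand) share chromosome 9 at a distance of 5.27 Mb. Tle6 is at chr10:81590904-81601185 (minus strand), Padi6 at chr4:140727355-140742643 (minus strand) and Zbed3 at chr13:95323605-95337842 (plus strand). The files assigned 5 transcripts to Nlrp5, 3 to Zbed3 and 1 to each other gene, and values were given per gene, so the transcripts of Nlrp5 or Zbed3 were not told apart.

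Because the inhibitor acts on MYC–MAX, the 250 bases before each annotated start of these genes were searched for its binding motif, the E-box CACGTG, and for the general E-box CANNTG, which read the same on both strands. The RefSeq promoter table (GRCm38.p6) held starts for 7 of the 7 genes. CACGTG was found before 1 of the 7, Tle6, whose first annotated start is preceded by 2 copies, 183 and 119 bases upstream. Both copies lie inside the Tle6 span given above, so they are upstream of this RefSeq start but not of the whole span. The window also contains an annotated exon of Tle6. Among 32851 promoters of the same length, 6.02% held the motif and 0.429% held it at least 2 times, and 6.86% of 27025 genes had it before at least 1 start. The 30 bases around each copy are shown with the motif in capitals, at chr10:81601066-81601095 and chr10:81601002-81601031, both on the minus strand.

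Tle6 E-box 183 bases upstream: tggctcgcagccCACGTGggctcgccgcct
Tle6 E-box 119 bases upstream: gagtccggggccCACGTGcaccgtggcctg

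The general E-box, of which CACGTG is 1 form, was in 66.2% of all promoters. It stood before at least 1 start of 6 of the 7 genes, against 69.3% of all genes, and Nlrp2 had none. The windows of 3 genes that contain no annotated exon are shown with CANNTG in capitals. They are those of Zbed3, the most abundant of the 7 transcripts (chr13:95323355-95323604, plus strand, the first of 3 annotated starts), of Nlrp5, which encodes a core protein of the complex (chr7:23385639-23385888, plus strand, the first of 2), and of Padi6, the lattice component (chr4:140742644-140742893, minus strand). A match is a description of these letters and says nothing of whether a factor was bound.

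Zbed3 promoter: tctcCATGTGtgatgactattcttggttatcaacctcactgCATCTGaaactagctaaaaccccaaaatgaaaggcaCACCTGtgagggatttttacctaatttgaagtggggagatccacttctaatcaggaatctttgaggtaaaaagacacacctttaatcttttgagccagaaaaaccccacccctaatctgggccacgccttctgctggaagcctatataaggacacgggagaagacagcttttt
Nlrp5 promoter: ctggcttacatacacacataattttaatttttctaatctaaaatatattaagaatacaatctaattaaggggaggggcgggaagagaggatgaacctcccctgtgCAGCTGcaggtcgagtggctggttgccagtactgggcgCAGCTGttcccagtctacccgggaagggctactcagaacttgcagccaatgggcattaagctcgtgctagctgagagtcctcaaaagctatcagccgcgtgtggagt
Padi6 promoter: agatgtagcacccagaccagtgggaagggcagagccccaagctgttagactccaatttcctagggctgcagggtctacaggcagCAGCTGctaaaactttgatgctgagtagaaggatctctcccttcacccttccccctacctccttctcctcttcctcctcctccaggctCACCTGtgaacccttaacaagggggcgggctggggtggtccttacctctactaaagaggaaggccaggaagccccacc

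The libraries held between 18206584 and 20718690 expected counts, and the rounded counts of the 7 genes in a library ranged from 122 (Nlrp2) to 81188 (Zbed3). DMSO replicate 1 stood apart from the other libraries, and it was the lowest library for 41.3% of the 13549 tested genes and held under 0.5 times the CPM (counts per 1000000 counts, scaled with TMM factors) of DMSO replicate 2 for 26.2% of them. The log2FC of each of the 7 genes, and of other genes where it moved by over 1.5 times, is therefore also given with DMSO replicate 1 left out. The labelled stage was checked with 12 names of genes that are expressed for a short time in two-cell embryos, of which 11 were listed, and all 11 had counts in all 4 libraries, with a summed CPM of 1689 and 4104 in control and 5534 and 5287 in inhibitor-treated embryos. Tcstv3 and Tcstv1, the most abundant of them, had a mean FPKM (fragments per kilobase of transcript and 1000000 fragments) of 1235 and 828. In DMSO replicate 1, 8 of the 11 markers held under 0.5 times the CPM of DMSO replicate 2, against 26.2% of all tested genes. Usp17le had 2 and 230 counts in control and 298 and 133 in treated embryos. Cells that surround the egg were checked with 12 cumulus and granulosa markers, whose summed CPM was between 6.89 and 15.5 in a library, and Amh, Foxl2, Inha, Inhba and Ptx3 were at 0 in all libraries. The most abundant were Tnfaip6, a cumulus expansion gene with 0 and 95 counts in control and 93 and 38 in treated embryos, and Cyp19a1, the aromatase gene, with 23 and 25 counts in control and 128 and 27 in treated embryos. Of the 4 tested, Star had the lowest log2FC, -0.39, or -0.18 with DMSO replicate 1 left out. The 7 sperm markers summed to between 1.43 and 5.43 CPM, with 10 and 27 counts of Prm2 in control and 111 and 39 in treated embryos and at most 10 of Tnp1, and Prm1 and Tnp2 were at 0 in all libraries. The part of these cells in the results was not tested.

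Levels of the 7 genes were compared per length, in FPKM, and Zbed3 far exceeded the others. Its FPKM was 348 and 1124 in control replicates 1 and 2, and 2333 and 2036 in treated replicates 1 and 2, the order in which the values of every gene are given. By FPKM it ranked 436 and 100 among all listed genes in the control libraries and 33 and 40 in the inhibitor-treated libraries. Zbed3 made up between 81.8% and 91.8% of the summed TPM (transcripts per 1000000 transcripts) of the 7 genes in a library. Ooep came next, with an FPKM of 37.7 and 121 in control and 125 and 137 in inhibitor-treated embryos. DMSO replicate 1 was thus the low library for Ooep, while DMSO replicate 2 lay next to the treated libraries.

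Padi6 had an FPKM of 11.6 and 23.2 in control and 26.4 and 32.4 in inhibitor-treated embryos, so that the groups did not overlap. Nlrp5 was at 8.28 and 17.9 FPKM in control and 22.7 and 21.8 FPKM in inhibitor-treated embryos. For Tle6 the values were 5.75 and 12.9 FPKM in control and 16.3 and 18.8 FPKM in inhibitor-treated embryos. These 3 genes shared 1 order with Zbed3 and Ooep, in which DMSO replicate 1 was lowest, DMSO replicate 2 in between and both treated libraries above. Khdc3 departed from it, with 12.1 and 8.40 FPKM in control and 8.75 and 12.3 FPKM in inhibitor-treated embryos, and its groups overlapped. Nlrp2, the least abundant of the 7 by mean FPKM, was at 2.04 and 7.38 FPKM in control and 8.45 and 3.86 FPKM in inhibitor-treated embryos, where the treated libraries differed from each other by more than 2-fold and again the groups overlapped.

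**Figure D1:**
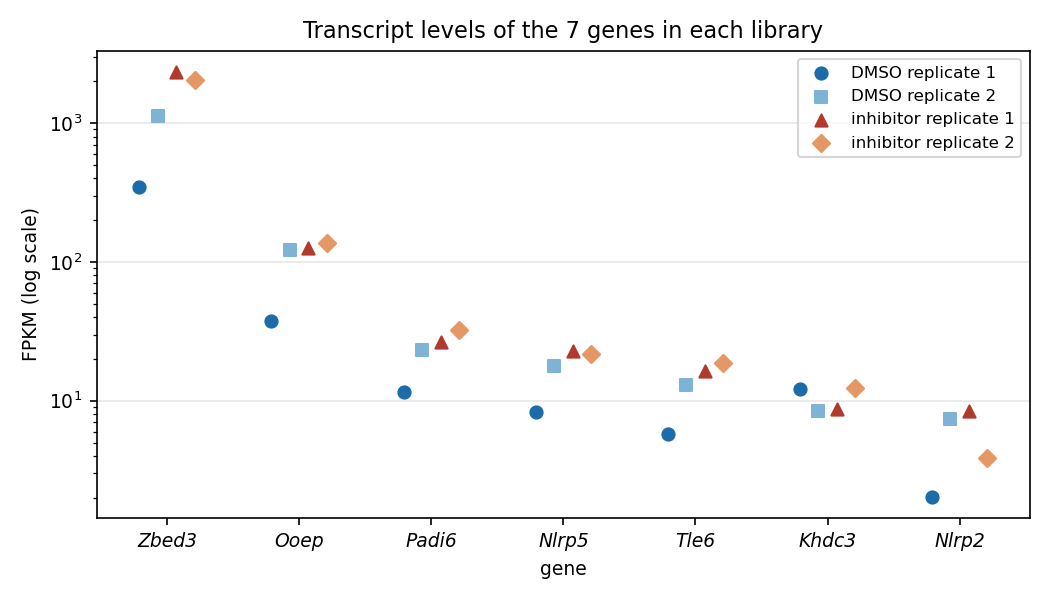
FPKM of the 7 genes (log axis) in each of the 4 libraries, 1 point per library. Zbed3 lies above every other gene in each library, DMSO replicate 1 is the lowest point for 6 of the 7 genes, and Khdc3 is the exception.

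The order of mean FPKM was Zbed3, Ooep, Padi6, Nlrp5, Tle6, Khdc3 and Nlrp2. Within a library, Zbed3 exceeded Ooep by 3.64 ± 0.51 (SD, n = 4) on the log2 scale of FPKM, and Ooep exceeded Padi6 by 2.10 ± 0.29 (SD, n = 4). The next steps were small, with 0.41 ± 0.15 (SD, n = 4) between Padi6 and Nlrp5 and 0.42 ± 0.14 (SD, n = 4) between Nlrp5 and Tle6, but each had the same sign in 4 of 4 libraries. Tle6 and Khdc3 did not differ beyond their spread, with 0.26 ± 0.91 (SD, n = 4) and Tle6 higher in 3 of 4 libraries. Khdc3 exceeded Nlrp2 in 4 of 4 libraries, by a difference no larger than its spread, 1.12 ± 1.21 (SD, n = 4).

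Because a ratio between genes of 1 library does not depend on the scaling of that library, each gene was also set against Nlrp5. The log2 ratio of FPKM to Nlrp5 was nearly level for Padi6, from 0.22 to 0.57 over the 4 libraries, and for Tle6, from -0.53 to -0.22. For Ooep it lay between 2.19 and 2.76. Khdc3 had the widest range, 1.93, since its FPKM was 1.47 times that of Nlrp5 in DMSO replicate 1 and between 0.386 and 0.562 times in the other 3 libraries. The ratio of Nlrp2 to Nlrp5 ranged from 0.177 to 0.413 and overlapped between the groups. Zbed3 was the 1 of these genes whose ratio to Nlrp5 did not overlap between the groups, at 42.0 and 62.9 times Nlrp5 in control and 103 and 93.2 times in inhibitor-treated embryos. The share of all tested genes with such a ratio was not computed. On CPM the groups did not overlap for 28.9% of all tested genes with treated embryos higher and for 28.3% with treated embryos lower. In 2 libraries against 2, an exact two-sided permutation test of a single value cannot give a p under 0.333.

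**Figure D2:**
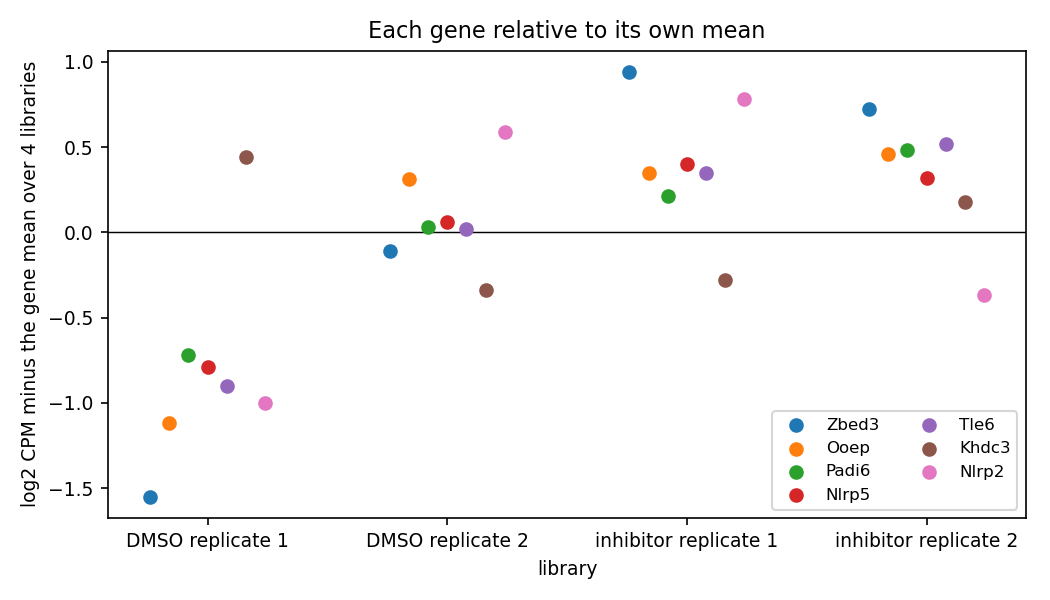
Log2 CPM of each gene minus its own mean over the 4 libraries, by library, 1 point per gene. In DMSO replicate 1 the genes other than Khdc3 lie between -1.55 and -0.72, and in the inhibitor-treated libraries Zbed3, Ooep, Padi6, Nlrp5 and Tle6 all lie above 0.

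The comparison of inhibitor-treated with control embryos asks whether these maternal transcripts differ in level when MYC–MAX heterodimerization is inhibited. A level here is a share of the polyadenylated RNA sequenced in a library, and amounts per embryo were not measured. The quasi-likelihood test of edgeR called none of the 7 genes at |log2FC| > 1 and a Benjamini-Hochberg adjusted p under 0.05, and 0% of the 13549 tested genes passed in either direction. At an unadjusted p under 0.05 it found 1 of the 7 genes higher, Zbed3, against 4.72% of all tested genes, and 0 of the 7 lower, against 10.1%. DESeq2 on the same genes called 1 of the 7 up-regulated, again Zbed3, against 0.716% of all tested genes, and none of them down-regulated, against 3.54%.

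Zbed3 had a control level of 1240 ± 811 CPM (SD, n = 2) and a treated level of 3493 ± 385 CPM (SD, n = 2). The log2FC, 1.49 with a standard error (SE) of 0.54, did not pass (adjusted p = 0.333 by edgeR). Both treated libraries were above both control libraries, and the treated mean was 1.93 times the CPM of DMSO replicate 2. DESeq2 gave a log2FC of 1.50 (SE 0.48, adjusted p = 0.0335), and edgeR without the filter on low counts gave 1.50 (SE 0.48, adjusted p = 0.0487), a setting in which 0.906% of 18208 genes were called higher. Zbed3 was also called when DESeq2 was run on all genes with a count, with or without effective lengths, where 0.478% of 18208 genes were called higher. Over the 14 alternatives the adjusted p of Zbed3 ranged from 0.00113 to 0.992 and its log2FC from 0.96 to 2.39. Without DMSO replicate 1 the log2FC was 0.96 (SE 0.21, adjusted p = 0.292 by edgeR), and without DMSO replicate 2 it was 2.39 (SE 0.23, adjusted p = 0.00113 by edgeR). Within the control group, DMSO replicate 2 had 2.72 times the CPM of DMSO replicate 1. The span of Zbed3 overlaps the small nucleolar RNA genes Snora47, which was listed at 0 in every library, and Gm22661, which was not listed.

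For the core genes Nlrp5, Ooep and Tle6 and for Padi6 the groups did not overlap either, but the differences were smaller and none passed the test. Nlrp5 had a control level of 43.3 ± 17.7 CPM (SD, n = 2) and a treated level of 68.6 ± 2.63 CPM (SD, n = 2), a log2FC of 0.66 (SE 0.43, adjusted p = 0.457 by edgeR). Ooep had 74.0 ± 47.9 CPM (SD, n = 2) and 116 ± 6.03 CPM (SD, n = 2), with a log2FC of 0.65 (SE 0.50, adjusted p = 0.530 by edgeR). The control SD was in both genes several times the treated SD. With DMSO replicate 1 left out the log2FC was 0.31 for Nlrp5 and 0.12 for Ooep. Padi6 had 36.6 ± 13.2 CPM in control and 57.5 ± 7.53 CPM in treated embryos (SD, n = 2 each), a log2FC of 0.65 (SE 0.42, adjusted p = 0.463 by edgeR), and Tle6 had 16.5 ± 7.23 CPM in control and 29.0 ± 2.44 CPM in treated embryos (SD, n = 2 each), a log2FC of 0.81 (SE 0.48, adjusted p = 0.427 by edgeR). Leaving out the same library gave 0.34 for Padi6 and 0.44 for Tle6. With DMSO replicate 2 left out instead, the log2FC was 1.16 for Nlrp5, 1.53 for Ooep, 1.08 for Padi6 and 1.34 for Tle6.

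The groups overlapped for Khdc3 and Nlrp2. As for Nlrp5, Ooep, Tle6 and Padi6, edgeR over all libraries did not tell their differences from the spread between replicates. Khdc3 had a control level of 15.5 ± 5.80 CPM (SD, n = 2) and a treated level of 14.1 ± 3.14 CPM (SD, n = 2), a log2FC of -0.14 (SE 0.51, adjusted p = 0.913 by edgeR), whose sign changed to 0.04 when library totals replaced the TMM factors, to 0.03 with limma on log2(FPKM + 1), and to 0.33 without DMSO replicate 1. Part of Khdc3 is overlapped on the same strand by Gm20509, which was not analysed here. Nlrp2 had 14.8 ± 10.6 CPM (SD, n = 2) and 18.4 ± 9.91 CPM (SD, n = 2), a log2FC of 0.32 (SE 0.67, adjusted p = 0.839 by edgeR), which was -0.26 without DMSO replicate 1 and -0.34 without inhibitor-treated replicate 1. The first 494 bases of Nlrp2 overlap Gm5065, a predicted gene on the opposite strand (chr7:5350542-5360682). Since the library kit is not stated to keep strand, reads of the overlap could belong to either gene. Gm5065 had 8.68 and 20.1 CPM in control and 23.4 and 28.0 CPM in inhibitor-treated embryos. Nlrp2 had 7.31 and 22.2 CPM in control and 25.4 and 11.4 CPM in inhibitor-treated embryos. Both genes were thus lowest in DMSO replicate 1, and from treated replicate 1 to treated replicate 2 Gm5065 rose while Nlrp2 fell. Whether reads of the overlap were assigned to the wrong gene was not tested.

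**Figure D3:**
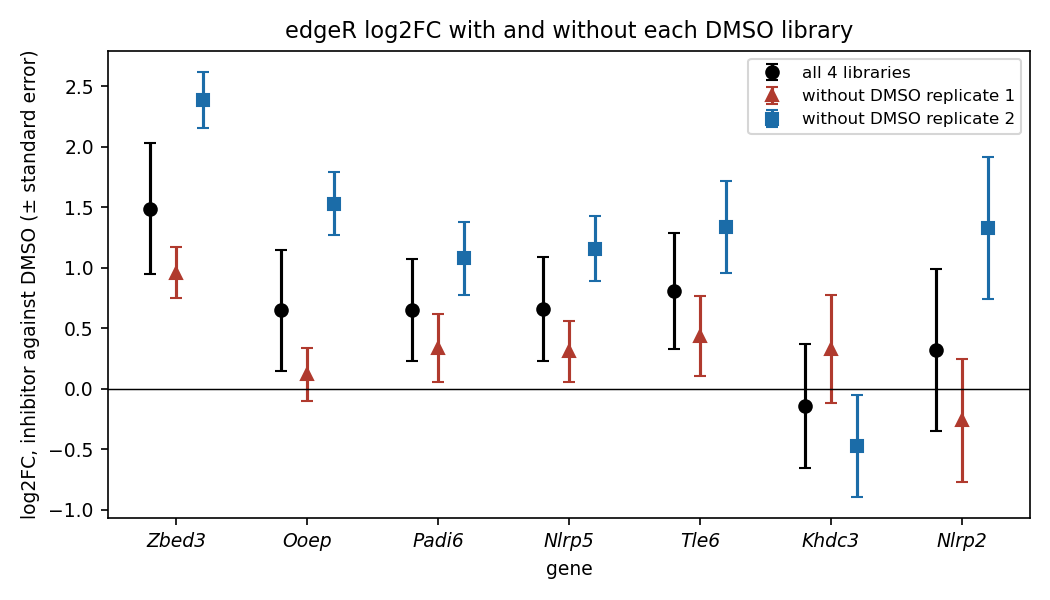
Log2FC of inhibitor-treated against control embryos from edgeR for each gene, with its standard error, over all 4 libraries and without either control library. Leaving out DMSO replicate 1 lowers the log2FC of Zbed3 from 1.49 to 0.96 and that of Ooep from 0.65 to 0.12, and leaving out DMSO replicate 2 raises them to 2.39 and 1.53.

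Over the 7 genes the median log2FC was 0.65, against 0.04 over all tested genes. A log2FC above 0 was found for 6 of the 7 genes, all but Khdc3 (which was above 0 with library totals and with limma on FPKM), against 51.5% of all tested genes. The groups did not overlap, with both treated libraries higher, for 5 of the 7 genes against 28.9% of all tested genes, and none of the 7 was lower without overlap against 28.3%. Scaling by library totals moved the median of all genes to 0.17 and that of the 7 genes to 0.76.

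The control libraries also differed from each other. For the 6 genes other than Khdc3, DMSO replicate 2 had between 1.68 and 3.04 times the CPM of DMSO replicate 1, while the treated mean was between 1.25 and 2.82 times the control mean. The treated libraries lay closer together for the same genes except Nlrp2, with replicate 2 at 0.855 to 1.20 times replicate 1. DMSO replicate 1 was the lowest library for 6 of the 7 genes against 41.3% of all tested genes, and held under 0.5 times the CPM of DMSO replicate 2 for 3 of the 7, Ooep, Nlrp2 and Zbed3, against 26.2%. The median centred log2 CPM of the 7 genes was -0.90 and 0.03 in the control libraries and 0.35 and 0.46 in the treated libraries. With DMSO replicate 1 left out their median log2FC was 0.33, and with DMSO replicate 2 left out it was 1.33. Against DMSO replicate 2 alone, both treated libraries were higher for 6 of the 7 genes, all but Nlrp2, and so were 37.2% of all tested genes. When DMSO replicate 2 was left out, 5 of the 7 genes (Nlrp5, Ooep, Tle6, Padi6 and Zbed3) passed both thresholds, but 15.8% of all tested genes then did so in the same direction and 14.9% in the other. The part that DMSO replicate 1 has in the group differences beyond these values was not tested.

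**Figure D4:**
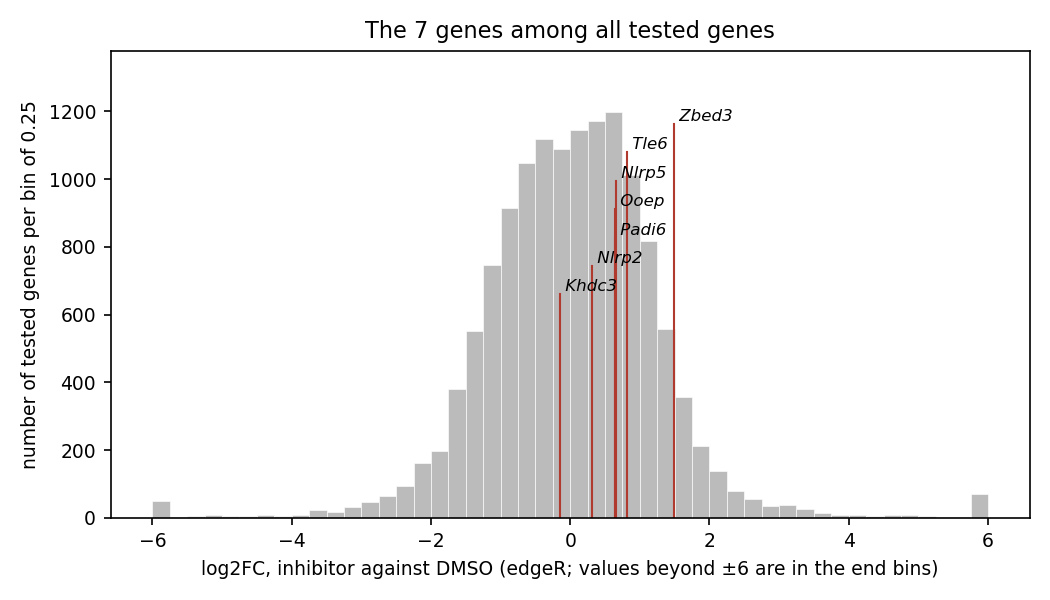
Number of tested genes in each bin of 0.25 of the edgeR log2FC (grey bars), with red lines at the 7 genes. Of the 7, Zbed3 at 1.49 lies farthest to the right and Khdc3 at -0.14 is the single gene below 0.

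Other proteins have been described with the complex or the lattices, and of 7 names written down for their genes 6 were listed, all of which passed the filter. The median log2FC of the 6 was 0.79, with 5 above 0, and became 0.38 when DMSO replicate 1 was left out and 1.48 when DMSO replicate 2 was. None was called by edgeR, and at an unadjusted p under 0.05, 2 of the 6 were higher and 0 lower, against 4.72% and 10.1% of all tested genes. These were Nlrp4f, with 38.0 and 181 FPKM in control and 397 and 282 FPKM in inhibitor-treated embryos (log2FC 1.57, SE 0.64, adjusted p = 0.333 by edgeR), and Nlrp14 (log2FC 1.09, SE 0.42, adjusted p = 0.333 by edgeR), both relatives of Nlrp5. With DMSO replicate 1 left out, the log2FC of Nlrp4f was 0.91 and that of Nlrp14 0.73. Ube2d3, a ubiquitin-conjugating enzyme gene and the most abundant of the list, had 516 and 1139 FPKM in control and 1547 and 1633 FPKM in inhibitor-treated embryos, a log2FC of 0.84 that was 0.48 with that library left out. Skp1a, an adaptor of ubiquitin ligases, had 618 and 605 FPKM in control and 777 and 691 FPKM in treated embryos, a log2FC of 0.12, or 0.28 with DMSO replicate 1 left out. Cfl1, which encodes the actin-severing protein cofilin, had the lowest log2FC of the list, -0.47 (SE 0.38, adjusted p = 0.547 by edgeR), with both treated libraries below both control libraries, and -0.17 with DMSO replicate 1 left out.

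Of 23 names written down for relatives in the PADI, TLE, KHDC, ZBED and NLRP families outside the complex, 22 were listed and 16 passed the filter. The median log2FC of the 16 was 0.05 (-0.09 with DMSO replicate 1 left out and 0.46 with DMSO replicate 2 left out), with 8 above and 8 below 0, and none was called by edgeR. At an unadjusted p under 0.05, 1 of the 16 was higher and 2 were lower, against 4.72% and 10.1% of all tested genes. PADI relatives were nearly absent, with at most 13 counts of Padi1, Padi2, Padi3 or Padi4 in a library against 455 to 1316 of Padi6. The most abundant relative was Dppa5a, a KH domain gene that lies 8.70 kb from Ooep (chr9:78367052-78368199) and is known as a marker of pluripotent cells. Dppa5a had 8884 and 3707 FPKM in control and 1063 and 1595 FPKM in inhibitor-treated embryos, a log2FC of -2.43 (SE 0.58, adjusted p = 0.333 by edgeR) and -1.47 without DMSO replicate 1. DMSO replicate 1 was the highest library for Dppa5a and the lowest for its neighbour Ooep. Khdc1b, the second most abundant relative, had 282 and 539 FPKM in control and 760 and 708 FPKM in treated embryos (log2FC 0.73, SE 0.40, adjusted p = 0.402 by edgeR, or 0.45 on the log2 scale with DMSO replicate 1 left out). The lowest log2FC of the list was that of Nlrp12, -3.08, which was -0.53 without DMSO replicate 1, and the groups overlapped. Tle2, 1 of the 8 above 0, had 0 counts in both control libraries and 12 and 18 in the treated libraries. Padi2, also 1 of the 8, had 0 and 9 counts in control and 12 and 12 in treated embryos. Both genes thus passed the filter through the treated libraries alone, so their direction is no independent result. The treated mean of Tle2 was at least 4.18-fold higher when control was set at 3 counts per library, and edgeR did not call Tle2 (adjusted p = 0.350 by edgeR).

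As a background of oocyte transcripts, 31 other stored mRNAs were tested. Their median log2FC was 1.03, above that of the 7 genes, with 27 above 0 against 51.5% of all tested genes, and leaving out a control library changed it to 0.53 (DMSO replicate 1) or 1.96 (DMSO replicate 2). At an unadjusted p under 0.05, 8 of the 31 were higher and 1 was lower, against 4.72% and 10.1% of all tested genes, and none was called by edgeR. Nobox, an oocyte homeobox gene, had the highest log2FC, 1.84 (SE 0.46, adjusted p = 0.333 by edgeR), and Zp3, a zona pellucida gene, had the lowest, -1.37 (SE 0.56, adjusted p = 0.333 by edgeR). With DMSO replicate 1 left out, Nobox was at 1.46 and Zp3 at -0.27, and Figla, a transcription factor gene of oocytes, then had the lowest log2FC, -0.84. Dppa3 and Tcl1 were the most abundant, and their log2FC had opposite signs, -0.89 and 1.28, or -0.35 and 0.84 with that library left out. The 11 two-cell markers had a median log2FC of 1.02, or 0.33 with DMSO replicate 1 left out and 2.38 with DMSO replicate 2 left out, with Zscan4f highest at 1.83 and Eif1a lowest at -1.20. Zscan4f was at 1.07 and Eif1a at -0.59 when DMSO replicate 1 was left out. That library was the lowest for 27 of the 31 stored mRNAs and 10 of the 11 markers, against 41.3% of all tested genes. Both treated libraries were above both control libraries for 23 of the 31 and 7 of the 11, against 28.9%. They were below both for 2 of the 31 and 1 of the 11, against 28.3%. Tcstv1, Tcstv3, Zscan4f, Khdc1b and Nlrp4f belong to families of similar copies, among which uniquely mapped reads can be lost or split, so their values are uncertain.

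**Figure D5:**
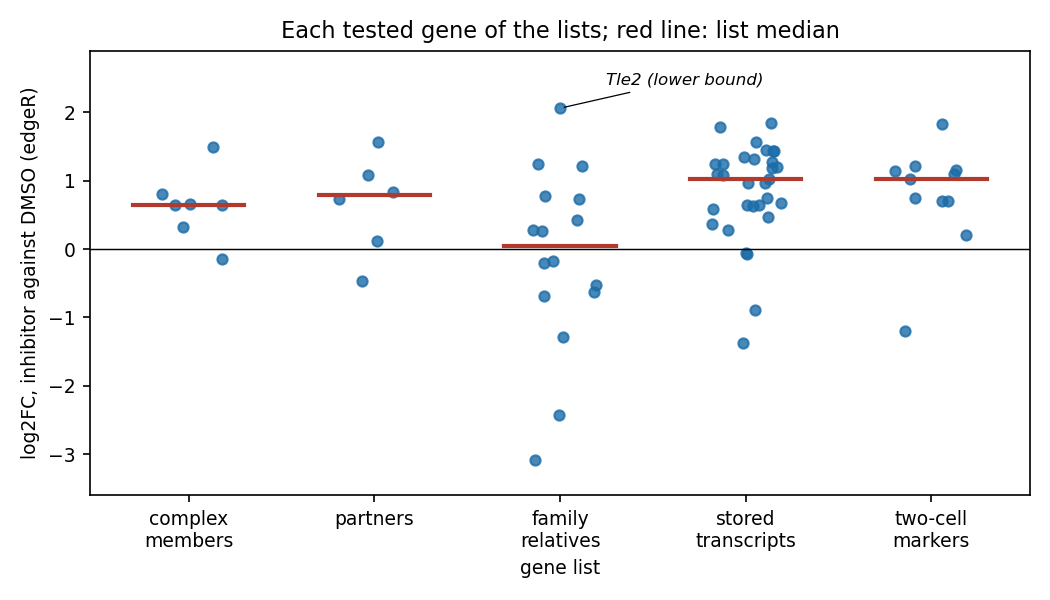
EdgeR log2FC of each tested gene of the 7 complex members, 6 partners, 16 family relatives, 31 stored transcripts and 11 two-cell markers, with the median of each list as a red line. The medians are 0.65, 0.79, 0.05, 1.03 and 1.02, and Tle2 is drawn at its lower bound of 2.06.

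Of the 5150 tested genes whose mean FPKM reached 10, those whose centred profile over the 4 libraries lay closest to the median profile of the 7 genes were Fbxw19, Txndc16, Ddb2, Lamtor5 and Ube2d3, at Euclidean distances from 0.0488 to 0.0878 on the log2 scale. Fbxw19, an F-box gene, had 60.9 and 136 FPKM in control and 169 and 193 FPKM in inhibitor-treated embryos. Of the 7 genes themselves, Tle6 lay closest to their median, at 0.0634, followed by Nlrp5 at 0.183, and Khdc3 lay farthest, at 1.55. The median is made from these 7 genes, so their distances cannot be compared with those of other genes. With 4 libraries, many genes can share a profile, and the likeness is a description.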

How the data were processed

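Polyadenylated RNA-seq libraries of late two-cell embryos, 2 of DMSO-treated control and 2 of inhibitor-treated embryos, were grouped by the sample labels. The authors used a SMART-Seq v4 PLUS kit with PCR amplification, aligned paired reads to mm10 with STAR, retained those that mapped uniquely and estimated gene abundance with RSEM (STAR 2.7.10 and RSEM 1.3.3 per the submitters' processing notes). The expected count deposited by the authors is RSEM's estimate of fragments per gene and is not normalized. The TPM and FPKM deposited by the authors are scaled to effective length and to the library, and the effective lengths, also deposited, entered 1 alternative. Genes with near-identical copies may lose or share reads under unique mapping.

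Expected counts were rounded (3.97% to 4.49% of values in a library were not whole), filtered with filterByExpr (minimum count 10, minimum total 15; 13549 genes), scaled with TMM factors of 0.873 to 1.06 and tested with edgeR 4.0.16 in R 4.3.3 (quasi-likelihood, robust, Benjamini-Hochberg over all tested genes), with the study's thresholds. Standard errors were obtained from the quasi-likelihood F. The alternatives used DESeq2 1.42.0, which the authors also used, and limma 3.58.1. The methods were also run on simulated counts that varied less between replicates than these data. That run does not show how they perform here. The 7 genes were named in full. From each other list, written from general knowledge, the 2 genes with the highest mean FPKM and those with the highest and lowest log2FC were named, and the 5 genes of most similar profile. Other genes were named after their values were seen, among them Gm5065, Snora47, Nlrp14, Figla, the PADI relatives and the markers at 0. The genes and lists were chosen with earlier results of these data known. No molecular identifiers mark PCR copies, so the floor of 3 counts covers counting error only. Promoter sequences are from RefSeq (GRCm38.p6). Protein sequences were not used here.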

Additional observations from a re-analysis of the deposited data

How the results depend on the processing

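The number of genes called over all genes, 0 higher and 0 lower with edgeR, was 165 and 479 without the filter on low counts, 97 and 479 with DESeq2 on the tested genes, 87 and 437 with DESeq2 on all genes with a count, 87 and 438 when DESeq2 was also given effective lengths, and 12 and 32 with the replicate number as a block. With each library left out in turn it ranged from 0 to 2147 higher and from 0 to 2025 lower, where a group of 1 library is assumed to vary like the other group. The labels do not say whether libraries of the same replicate number form a pair. The correlation of the deviations of the replicates numbered 1 was -0.0343, and with 2 libraries per group it cannot decide this. With the replicate block the log2FC of Zbed3 was 1.66 (adjusted p = 0.283 by edgeR) and no member was called. The median log2FC of the 7 genes lay between 0.65 and 0.87 over the alternatives that kept all libraries, and between 0.33 and 1.33 with each library left out. Between 6 and 7 genes were above 0 under each of the 14 alternatives. In a check added after the data were seen, 5 or 6 genes were higher with no overlap between the groups with each library left out, where 37.2% to 45.4% of all tested genes were, and 5 with library totals or on FPKM, where 31.5% and 31.4% were. The direction of Khdc3 turned to 0.04 with library totals, 0.03 with limma on log2(FPKM + 1) and 0.04 with limma on log2(FPKM + 0.1), and with libraries left out in turn Khdc3 lay between -0.47 and 0.33 and Nlrp2 between -0.34 and 1.33. Zbed3 passed both thresholds without the filter, with the 3 forms of DESeq2 and without DMSO replicate 2, and in none of the other 9 alternatives. The cause of these changes was not tested. Each of the 7 genes had at least 122 counts in each library, in which PCR copies are not told from separate molecules, and each group had 2 libraries.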
